A study of Mus musculus with 6 samples.

Results

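The 39 genes of the mouse Hox clusters were followed across 6 libraries of mouse embryonic fibroblasts (MEFs). They were taken from 25793 genes in the count tables as every symbol made of Hox, a cluster letter from a to d and a number. Cluster A held 11 of them, cluster B 10, cluster C 9 and cluster D 9. Primary MEFs were grown from embryos at E13.5 in medium with 10% fetal bovine serum, from matings of mice heterozygous for a knockout of Sptbn1 or of Smad3. Sptbn1 encodes β2SP, a β-spectrin of the membrane skeleton, and Smad3 encodes a transcription factor activated by TGF-β receptors. The groups were wild type (WT, no mutant allele), β2SP+/- (1 mutant Sptbn1 allele), β2SP-/- (2), SMAD3+/- (1 mutant Smad3 allele), SMAD3-/- (2), and β2SP+/-; SMAD3+/- (1 of each, called the double heterozygote here). Each group was 1 library, nothing in the labels states how many embryos went into it, and they name no treatment. Because no genotype was repeated, nothing checks a difference against replicates: each is one between libraries and carries no p-value.

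Hox genes encode transcription factors that give cells of the embryo their position along the body. Within a cluster the genes lie in the order in which they are used, from paralogue number 1 near the head to number 13 in the tail, the genital tubercle and the tips of the limbs. Cultured fibroblasts are known to keep much of the Hox pattern of the body site they came from, so MEFs from whole embryos hold a mixture of such patterns. In bulk RNA a lower level can mean fewer cells of one kind or less RNA per cell, and these cannot be told apart here.

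Every member carries a homeobox, the stretch of 180 bases that encodes the DNA-binding homeodomain. It was found in all 39 in the GENCODE M21 transcripts of GRCm38. The homeoboxes of Hoxa13 on chromosome 6 and Hoxd13 on chromosome 2 are shown because these posterior members rose in the same libraries, and those of Hoxc6 and Hoxc8 on chromosome 15 because these were the most abundant members per kilobase of transcript in the other libraries. They were chosen after their values were seen. Capitals mark the codons of a conserved stretch of the recognition helix, which lies in the major groove of bound DNA.
Hoxa13: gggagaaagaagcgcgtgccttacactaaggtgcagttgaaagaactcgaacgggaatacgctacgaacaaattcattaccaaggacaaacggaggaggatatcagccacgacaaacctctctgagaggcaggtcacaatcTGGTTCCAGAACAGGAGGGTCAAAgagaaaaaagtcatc
Hoxd13: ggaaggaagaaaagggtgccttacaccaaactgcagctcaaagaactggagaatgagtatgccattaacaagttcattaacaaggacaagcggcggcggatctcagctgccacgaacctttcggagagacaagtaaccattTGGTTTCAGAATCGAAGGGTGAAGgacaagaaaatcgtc
Hoxc6: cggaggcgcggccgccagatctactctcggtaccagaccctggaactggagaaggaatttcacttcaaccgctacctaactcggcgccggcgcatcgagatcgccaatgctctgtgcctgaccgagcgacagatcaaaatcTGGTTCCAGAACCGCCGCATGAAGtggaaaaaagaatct
Hoxc8: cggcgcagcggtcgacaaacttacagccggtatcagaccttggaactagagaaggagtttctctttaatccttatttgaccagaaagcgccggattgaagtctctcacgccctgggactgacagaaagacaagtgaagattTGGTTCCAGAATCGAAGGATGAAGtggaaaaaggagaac
Hoxa13 and Hoxd13 were identical at 73.9% of these bases, and Hoxc6 and Hoxc8 at 67.8%. Hoxa13 matched Hoxc8 at 47.8%. Over all pairs, 42 pairs of the same paralogue number were identical at a median of 80.6% of bases (67.2 to 93.9), and the other 699 pairs at 60.6% (46.1 to 88.9). The longest identical run in any pair was 52 bases. The sources used here do not give how reads that match more than 1 member were counted.

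The libraries differed in ways that bear on every value below. Counts on genes ran from 6856680 (β2SP-/-) to 31125055 (double heterozygote). Of the reads placed at 1 site, 40.9 to 43.3% lay on genes in WT, β2SP+/-, β2SP-/- and SMAD3+/-, against 80.1% in SMAD3-/- and 81.2% in the double heterozygote. The ribosomal RNA Rn18s was at 64661 to 87249 counts-per-million (CPM) in the first 4 and at 349 and 1529 CPM in the latter pair. The nuclear RNA Malat1 was at 30717 to 38532 CPM in the first 4, and at 4473 and 335 CPM. Results that rest on SMAD3-/- and the double heterozygote are therefore given with and without them, and the part of these differences in the Hox values was not tested. Below, the first 4 libraries are WT, β2SP+/-, β2SP-/- and SMAD3+/-, the last pair is SMAD3-/- and the double heterozygote, and 6 values in a row follow that order. Counts of the targeted genes did not all follow the labels. Sptbn1, listed under the older symbol Spnb2, stood at 75.5, 54.3, 109.6, 72.0 and 48.9% of WT in the libraries labelled β2SP+/-, β2SP-/-, SMAD3+/-, SMAD3-/- and double heterozygote. Smad3 stood at 108.2, 107.3, 149.0, 199.3 and 380.7% of WT in the same order, so it was highest in libraries labelled as its mutants. The labels do not give the deleted part of either gene, and whole-gene counts need not show it; genotype names below are those of the labels, whatever these counts show. Xist, which coats the inactive X in female cells, reached 2747 CPM in SMAD3+/- and at most 16.3 CPM in each of the other 5, so SMAD3+/- against WT is also a comparison between the sexes.

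The fibroblast identity on the labels was checked against 10 markers, all of which were detected in every library. Their summed level was 27137 to 35644 CPM in the first 4 libraries, 18480 in SMAD3-/- and 56879 in the double heterozygote. Markers are called higher or lower here by the rule used for the Hox genes, an exact 95% interval of the ratio to WT that lies beyond 1.5-fold, which held for 49.4% of all genes compared in SMAD3-/- and 40.7% in the double heterozygote. In SMAD3-/- 8 of the 10 were lower and only Vim, an intermediate filament, was higher. Dcn, a matrix proteoglycan, fell there from 1301 to 55.2 CPM (23.6-fold), its relative Lum by 7.19-fold, the surface marker Thy1 by 5.15-fold and Fn1, fibronectin, by 4.85-fold. In the double heterozygote 5 of the 10 were higher and 1, Thy1, lower, and in SMAD3+/- 2 were lower (Col3a1 and Lum). Markers of other cells were also present. The 8 macrophage and leukocyte markers summed to 1386 to 2132 CPM in the first 4 libraries and to 1521 CPM in the double heterozygote, with none at 0. They summed to 56.9 CPM in SMAD3-/-, where 8 of 8 were lower than in WT. The 12 neural and glial markers summed to 665 to 896 CPM in the first 4, to 1008 CPM in SMAD3-/- (1 at 0) and to 272 CPM in the double heterozygote (1 at 0), where 7 of 11 tested were lower than in WT. The 8 epithelial markers summed to 69.1 CPM in SMAD3-/- and to at most 28.5 CPM elsewhere. The 6 endothelial markers stayed between 7.15 and 14.7 CPM, and the 6 markers of mesothelium, kidney and gonad between 28.1 and 63.7 CPM. The 6 skeletal muscle markers summed to 21.1 to 106 CPM, most of it Des, the muscle intermediate filament, at 92.4 CPM in SMAD3-/-. In that library 3 of the 4 compared were higher than in WT: Myog, a myogenic factor, with 53 counts against 0, the embryonic myosin Myh3 with 97 against 1, and the cardiac actin Actc1 with 142 against 2. Myog and Myh3 reached 1 CPM, the level needed to be compared, only in SMAD3-/-. A higher level there was thus built into their being compared. Myod1 and Myf5 did not reach that level in any library and were not compared. The part of these other cells in the Hox values was not tested.

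Together the 39 genes took a small and similar share of the RNA in 5 of the 6 libraries. They held 3489 counts in WT (308.7 CPM), 2050 in β2SP+/- (301.9 CPM), 2120 in β2SP-/- (316.8 CPM), 3323 in SMAD3+/- (322.0 CPM), 4905 in SMAD3-/- (217.9 CPM) and 9570 in the double heterozygote (304.8 CPM). CPM here are counts divided by the library size after TMM scaling. SMAD3-/- was the lowest, and the double heterozygote lay within the range of the first 4. Between 28 and 32 members reached 1 CPM in a library. A count of 3, taken as the floor of detection, was worth 0.265, 0.442, 0.448, 0.291, 0.133 and 0.0955 CPM in the 6 libraries, so low members were least visible in the Sptbn1 mutants.

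**Figure D1:**
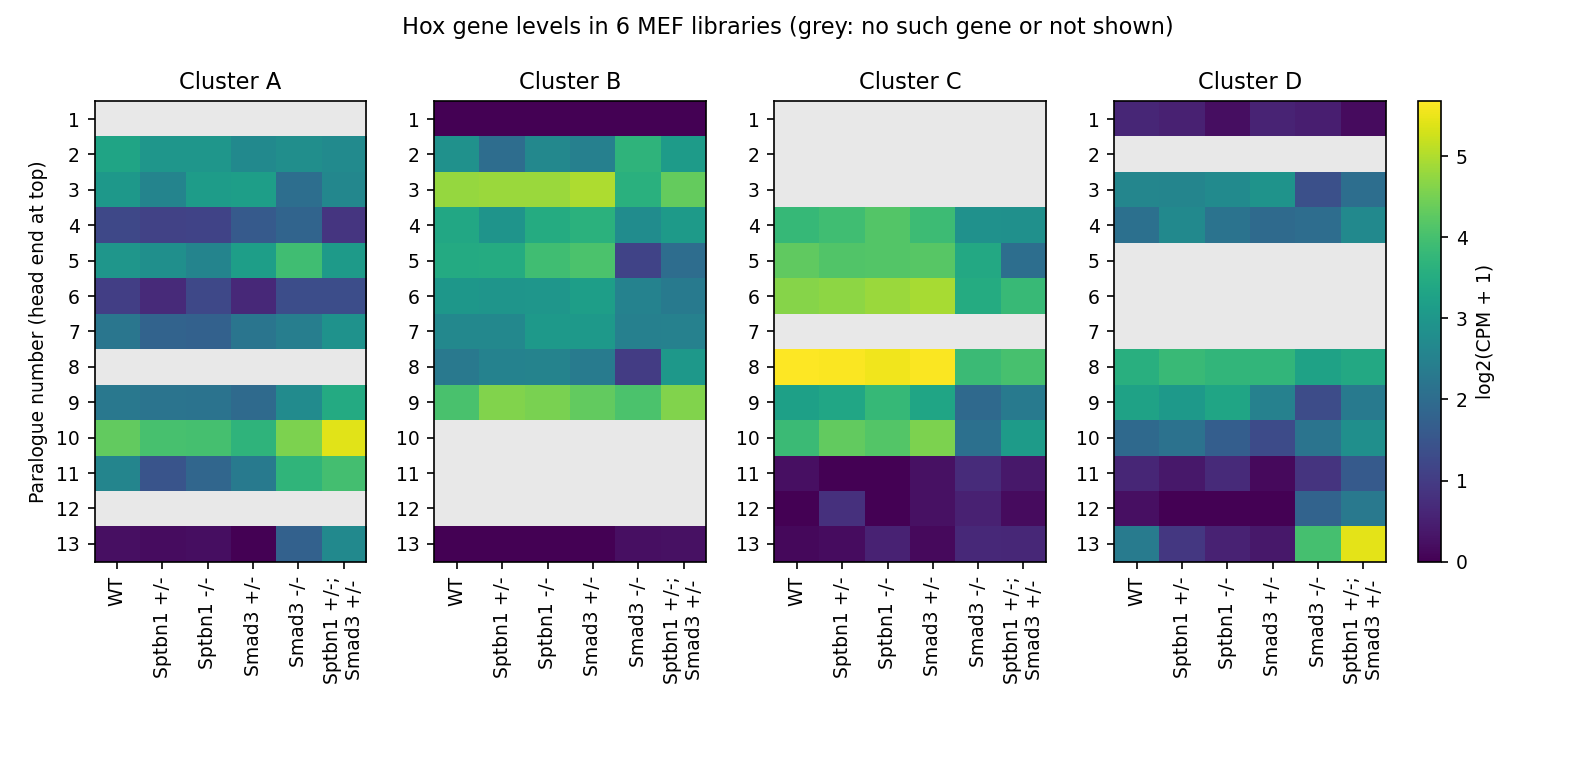
Levels of the 39 Hox genes as log2(CPM + 1), 1 panel per cluster, with paralogue number down the vertical axis and the 6 libraries (1 per genotype) along the horizontal axis; grey cells are numbers that do not exist in that cluster or are not shown, and β2SP is written by its gene name Sptbn1 in the plots. Hoxc8 is the brightest cell of the first 4 columns, at 46.3 to 50.1 CPM, and Hoxd13 and Hoxa10 those of the double heterozygote, at 42.3 and 42.1 CPM.

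The order of the members, compared per kilobase of transcript, was led by Hoxc8 and Hoxc6 in the first 4 libraries and by Hoxd13 and Hoxa10 in the double heterozygote. Hoxc8, which patterns the thorax and the forelimb-level spinal cord, was the most abundant member per kilobase in WT, β2SP+/-, β2SP-/- and SMAD3+/-, at 26.8, 26.2, 24.8 and 26.1 CPM per kb. Hoxc6, a thoracic gene, followed at 15.3, 16, 17.3 and 18.6 CPM per kb. In SMAD3-/- no member stood out: Hoxa5, Hoxb2, Hoxc8 and Hoxa10 lay at 7.64, 7.37, 7.32 and 7.14 CPM per kb, too close for an order. In the double heterozygote Hoxd13 came first at 17.0 CPM per kb and Hoxa10 next at 13.4, ahead of Hoxb9 at 9.07 and Hoxc6 at 8.32.

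The clusters shared the Hox counts differently in SMAD3-/- and the double heterozygote. Cluster C took 41.5% of Hox counts in WT (exact Clopper-Pearson 95% interval 39.9 to 43.2) and 44.5, 43.5 and 43.9% in β2SP+/-, β2SP-/- and SMAD3+/-. It took 21.9% (20.7 to 23.1) in SMAD3-/- and 16.5% (15.8 to 17.3) in the double heterozygote. The latter pair thus lay below the other 4, which spanned 2.96 percentage points. Cluster A went the other way, with 19.6, 14.6, 14.9 and 15.8% in the first 4 libraries and 35.2% (33.9 to 36.5) and 33.0% (32.1 to 34.0) in the others. Cluster D took 11.7, 12.0, 10.7 and 8.94% in the first 4, then 17.0% (15.9 to 18.1) and 25.3% (24.4 to 26.1). Cluster B varied least, from 25.2% in the double heterozygote to 31.3% in SMAD3+/-. These intervals cover counting error only: without molecular identifiers, several reads may stem from the same molecule.

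By position, the most posterior genes gained share in those libraries and the trunk genes lost it. Members numbered 11 to 13 took 3.32% of Hox counts in WT (2.75 to 3.97), 1.32% in β2SP+/-, 1.37% in β2SP-/- and 1.5% in SMAD3+/-. They took 15.9% (14.9 to 16.9) in SMAD3-/- and 22.9% (22.1 to 23.7) in the double heterozygote. Within the first 4 libraries WT was the highest, and its interval did not meet those of the other 3, which reached 1.98% at most. Members 5 to 8 took 45.7 to 48.3% in the first 4 libraries, 34.0% in SMAD3-/- and 24.8% in the double heterozygote. Members 9 and 10 took 22.2 to 26.9% in the first 4, 25.3% in SMAD3-/- and 31.9% in the double heterozygote. Members 1 to 4 took 25.3 to 28.0% in the first 4, then 24.8% and 20.3%. The mean paralogue number weighted by counts was 6.52, 6.66, 6.51 and 6.36 in the first 4, 7.24 (7.15 to 7.33) in SMAD3-/- and 8.22 (8.16 to 8.29) in the double heterozygote. Without SMAD3-/- and the double heterozygote, the spread of this mean between libraries was 0.30 paralogue numbers, against 1.87 over all 6.

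**Figure D2:**
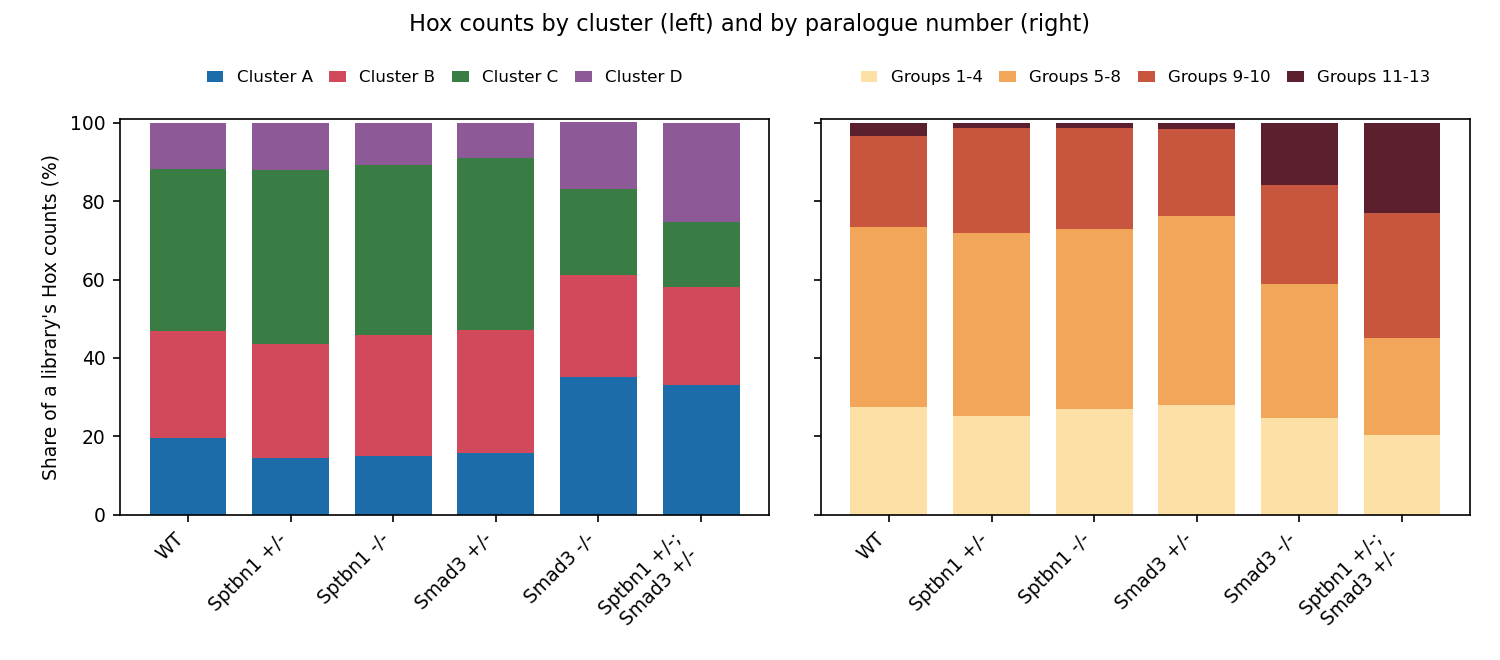
Share of each library's Hox counts in percent (vertical axis, stacked bars from 0), by cluster on the left and by paralogue number on the right, for 1 library per genotype. The bars of SMAD3-/- and the double heterozygote hold less of cluster C (21.9 and 16.5%) and more of groups 11-13 (15.9 and 22.9%) than the other 4.

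The posterior share came from clusters A and D. Cluster D members 11 to 13 took 1.58% of Hox counts in WT, 0.39, 0.33 and 0.12% in β2SP+/-, β2SP-/- and SMAD3+/-, 8.36% in SMAD3-/- and 15.9% in the double heterozygote. Cluster A members 11 and 13 took 1.66% in WT, 0.634 to 1.23% in the next 3 libraries, 6.69% in SMAD3-/- and 6.67% in the double heterozygote. Cluster C members 11 to 13 stayed at or below 0.754%, and the single posterior member of cluster B at or below 0.0815%.

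Single genes were compared between libraries by the ratio of their scaled counts with an exact 95% interval. A call, higher or lower, needed both ends of that interval to be more than 1.5-fold from WT or from the other library. The rule ran over the 14810 genes that reached 1 CPM in any library, among them 33 Hox genes. All 5 comparisons with WT use the same WT library, so they are not independent of each other. Hoxa13, Hoxd11 and Hoxd12 passed the 1 CPM filter only through SMAD3-/- or the double heterozygote, so a higher level there was built into their being compared.

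In β2SP+/-, β2SP-/- and SMAD3+/- a single member was called against WT, Hoxd13. It was lower in all 3, and 1 member is 3.03% of those compared. Over all genes the rule called 1.83% in β2SP+/- (0.635% higher, 1.2% lower), 1.06% in β2SP-/- (0.648% higher, 0.412% lower) and 6.1% in SMAD3+/- (1.64% higher, 4.46% lower). The median log2 ratio of the members to WT was -0.09, 0.05 and 0.09, against -0.01, -0.00 and 0.00 over all genes compared. Between β2SP-/- and β2SP+/- no member was called, and the rule called 1.3% of all genes (0.925% higher, 0.378% lower). In simulated data with counting error alone, over genes of all levels together, the rule found 58.5% of 2-fold changes in β2SP+/- and in β2SP-/-, and 68.5% in SMAD3+/-. A member with few counts and no call can thus still differ from WT. Hoxa11 came near a call in β2SP+/-, at 2.8-fold below WT (1.49 to 5.75) on 12 counts against 56. Hoxb9 lay 1.52-fold above WT there (1.22 to 1.9), also without a call.

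In SMAD3-/- 17 of the 33 members were called against WT, which is 51.5%. The rule called 49.4% of all genes in that comparison, so the number of Hox genes called is near the background and says nothing particular about them. Higher were Hoxa5, Hoxa11, Hoxa13, Hoxd12 and Hoxd13, and lower were Hoxa3, Hoxb3, Hoxb5, Hoxb8, Hoxc4, Hoxc5, Hoxc6, Hoxc8, Hoxc9, Hoxc10, Hoxd3 and Hoxd9. Among all compared genes, 24.2% were called higher, 25.2% were called lower and the median log2 ratio was -0.33 for the members and 0.05 for all genes. In the double heterozygote 15 members were called against WT, which is 45.5%, beside 40.7% of all genes. Higher were Hoxa9, Hoxa10, Hoxa11, Hoxa13, Hoxd11, Hoxd12 and Hoxd13, and among the lower were Hoxb5, Hoxc4, Hoxc5, Hoxc6, Hoxc8, Hoxc9 and Hoxd9. Among all compared genes, 21.6% were called higher and 19.1% lower, with a median log2 ratio of 0.06 against -0.21 for the members. With intervals widened by the dispersion among all 6 libraries, 3 members were called in SMAD3-/- and 4 in the double heterozygote, and with a 2-fold threshold 10 and 7. The shares of all genes under these stricter rules are not given, so these numbers cannot be read against a background.

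**Figure D3:**
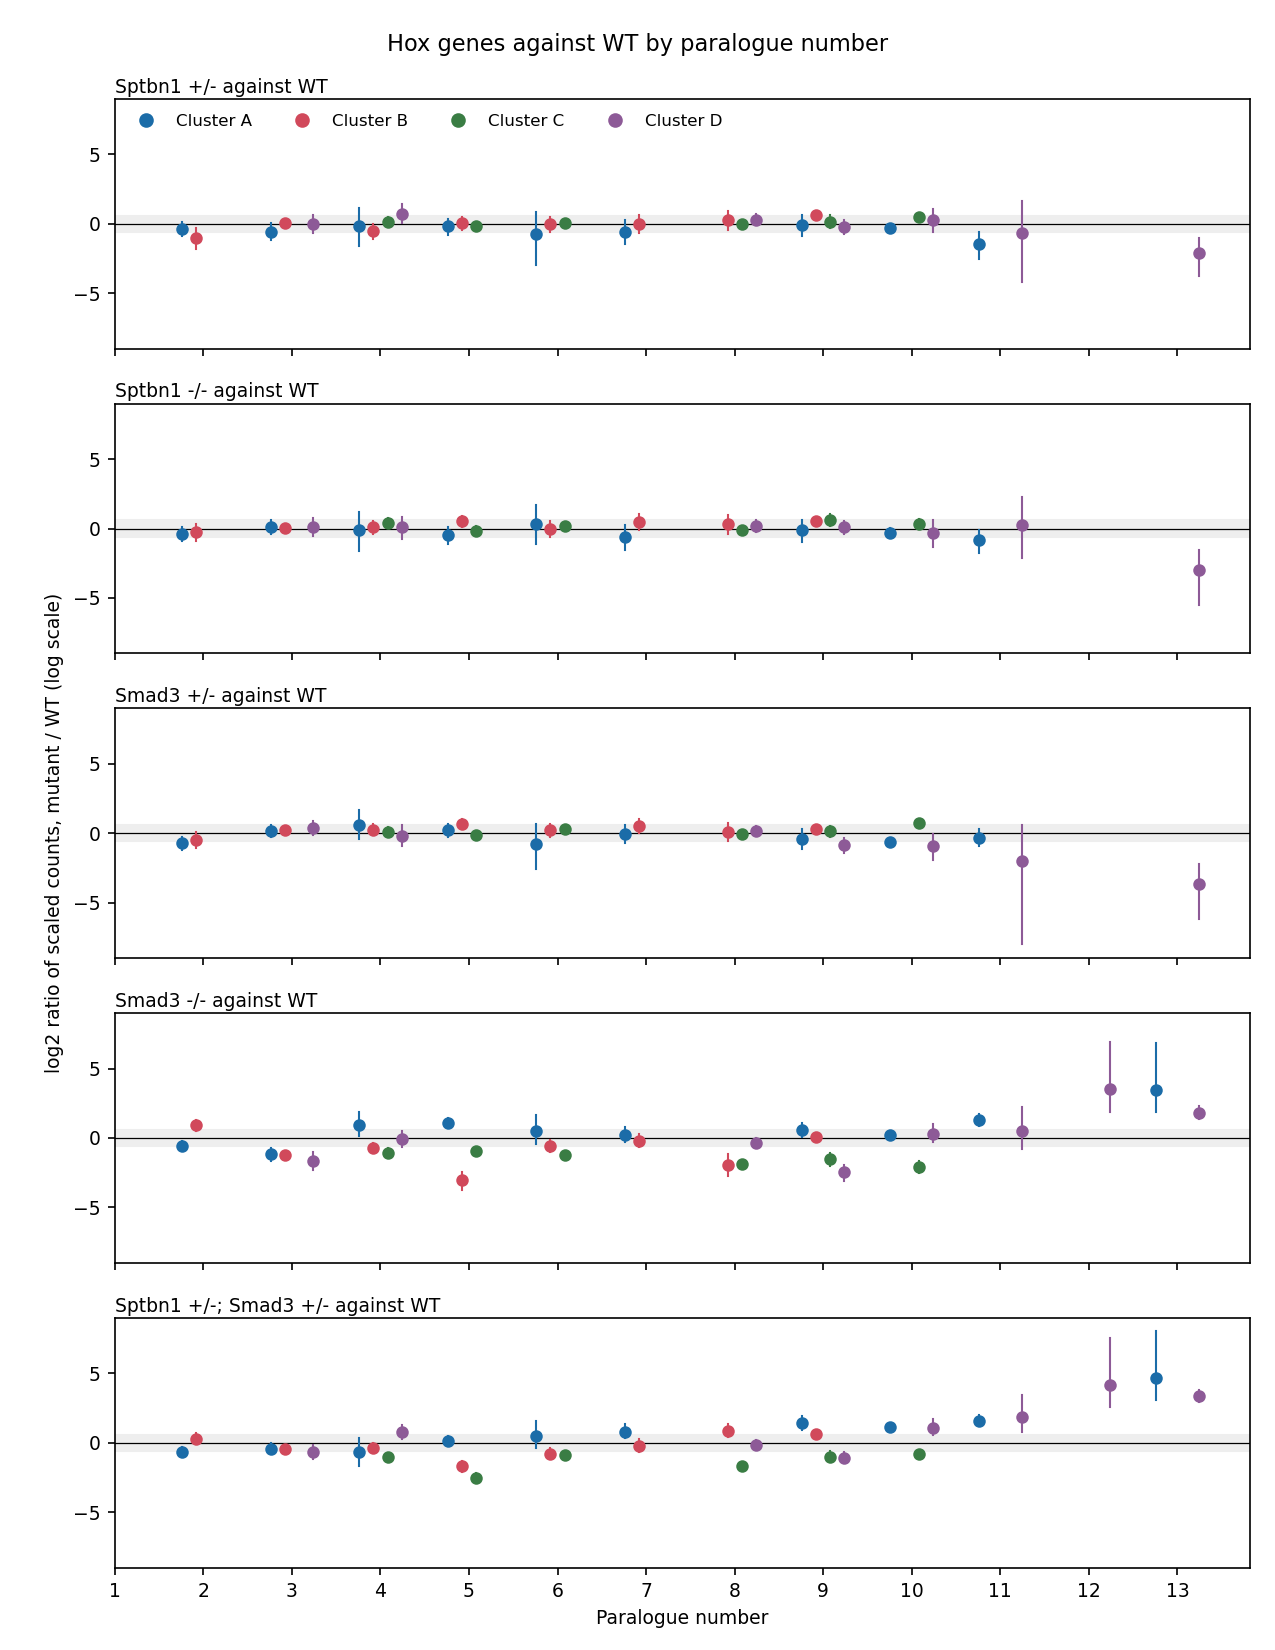
The log2 ratio of scaled counts to WT (vertical axis) by paralogue number (horizontal axis), 1 panel per mutant library, coloured by cluster, with exact 95% counting intervals as lines; the grey band marks ratios within 1.5-fold, and members with at most 3 counts in both libraries, and 1 more, are left out. Hoxd13 lies below the band in the upper 3 panels and above it in the lower 2, where Hoxa13 and Hoxd12 rest on 2 counts each in WT.

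By cluster, the calls were spread unevenly. In SMAD3-/- all 6 of the cluster C members compared (of 9) were lower, with a median log2 ratio of -1.39. Of the 11 in cluster A, 3 were higher and 1 lower. Of the 8 in cluster B, 3 were lower, and of the 8 in cluster D, 2 were higher and 2 lower. In the double heterozygote 5 of 6 cluster C members were lower (median -1.05), 4 of 11 cluster A members were higher and 1 lower, 1 of 8 cluster B members was lower, and 3 of 8 cluster D members were higher and 1 lower. No member numbered below 11 in clusters B, C or D was higher in either library, except Hoxb2 in SMAD3-/- when counts were scaled by their total. That scaling also left Hoxc5 without a call there, so that 5 of the 6 cluster C members were lower.

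Hoxd13 patterns the digits and the genital tubercle. Its counts were 47 in WT, 6 in β2SP+/-, 3 in β2SP-/-, 3 in SMAD3+/-, 336 in SMAD3-/- and 1329 in the double heterozygote, which are 4.16, 0.883, 0.448, 0.291, 14.9 and 42.3 CPM. It was thus lowest in β2SP+/-, β2SP-/- and SMAD3+/-, intermediate in WT and highest in the last pair. Against WT it was lower by 4.71-fold (2.01 to 13) in β2SP+/-, 9.28-fold (2.99 to 46.6) in β2SP-/- and 14.3-fold (4.6 to 71.8) in SMAD3+/-. It was higher by 3.59-fold (2.64 to 4.98) in SMAD3-/- and by 10.2-fold (7.61 to 13.9) in the double heterozygote. With intervals widened by the dispersion among all 6 libraries, the calls in SMAD3+/- and the double heterozygote held and the other 3 were lost.

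Hoxa13, its counterpart in cluster A, acts in the digits, hindgut and genital tubercle. It had 2 counts in WT, 1 in β2SP+/-, 1 in β2SP-/-, 0 in SMAD3+/-, 54 in SMAD3-/- (2.40 CPM) and 172 in the double heterozygote (5.48 CPM). It was at or under the floor in the first 4 libraries, so only the last pair can be set against WT: 13.6-fold higher (3.58 to 115) in SMAD3-/- and 31-fold higher (8.44 to 258) in the double heterozygote. Hoxd12, a distal limb gene next to Hoxd13, had 2, 0, 0, 0, 56 and 123 counts in the same order. It was 14.1-fold (3.71 to 119) and 22.1-fold (6 to 185) higher than in WT in SMAD3-/- and the double heterozygote, ratios whose width reflects the 2 counts in WT.

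Hoxa11 and Hoxd11 pattern the forearm and lower leg, and Hoxa11 also the kidney and the uterus. Hoxa11 stood at 4.95, 1.77, 2.69, 3.97, 12.2 and 14.8 CPM in WT, β2SP+/-, β2SP-/-, SMAD3+/-, SMAD3-/- and the double heterozygote. The last pair lay above the other 4, by 2.46-fold (1.84 to 3.34) and 3.00-fold (2.27 to 4.03) over WT. Hoxd11 had 6, 2, 4, 1, 18 and 65 counts in the same order. It was called only in the double heterozygote, at 3.9-fold over WT (1.7 to 11).

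**Figure D4:**
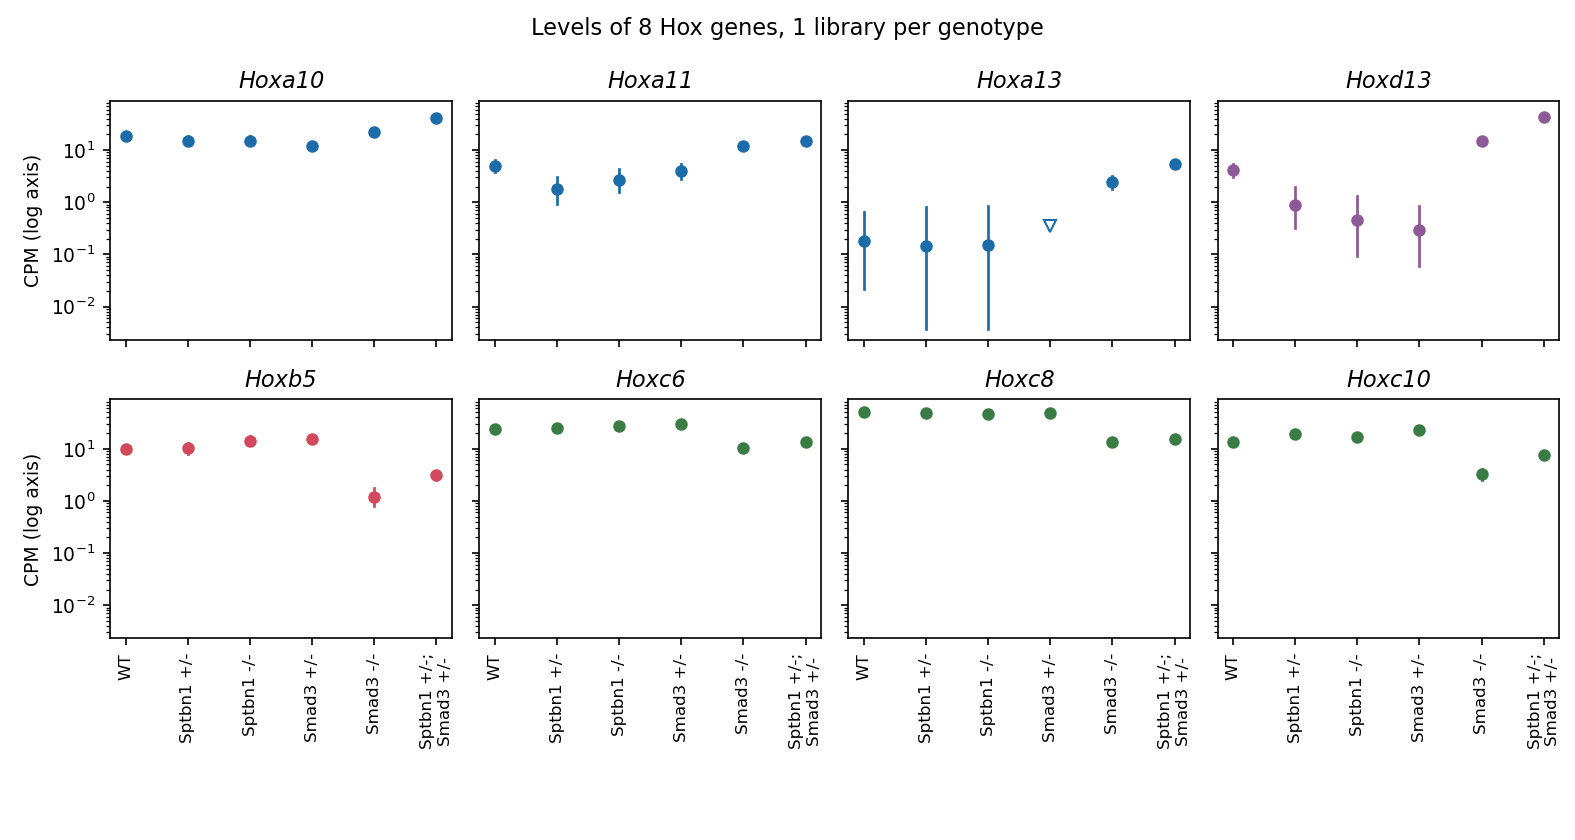
Level of 8 Hox genes in CPM (vertical log axis) in the 6 libraries (horizontal axis), 1 point per library with its exact Poisson 95% interval; the open triangle is the upper limit of a library with 0 counts. Hoxa11, Hoxa13 and Hoxd13 are highest in the 2 right-hand libraries, and Hoxb5, Hoxc6, Hoxc8 and Hoxc10 are lowest there.

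Upstream sequence was looked at because Hoxa13 and Hoxd13 were higher in the same libraries. RefSeq promoters (GRCm38.p6, 250 bases before to 50 after the start) matched 22 of the 39 genes with 24 promoters, out of 32851 promoters in all. The 250 bases before each start are shown with every CG in capitals, since unmethylated CG-rich promoters of Hox genes are known targets of Polycomb complexes; no methylation or binding was measured here. The files were made on mm9, and these positions are on the other build.
Hoxa13, chr6:52260881-52261130, minus strand: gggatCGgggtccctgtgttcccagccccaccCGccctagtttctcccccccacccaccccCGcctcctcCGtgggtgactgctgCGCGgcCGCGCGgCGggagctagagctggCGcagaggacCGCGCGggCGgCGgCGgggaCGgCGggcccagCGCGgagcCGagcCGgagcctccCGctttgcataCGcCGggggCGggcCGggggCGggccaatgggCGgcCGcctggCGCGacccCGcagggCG
Hoxd13, chr2:74667975-74668224, plus strand: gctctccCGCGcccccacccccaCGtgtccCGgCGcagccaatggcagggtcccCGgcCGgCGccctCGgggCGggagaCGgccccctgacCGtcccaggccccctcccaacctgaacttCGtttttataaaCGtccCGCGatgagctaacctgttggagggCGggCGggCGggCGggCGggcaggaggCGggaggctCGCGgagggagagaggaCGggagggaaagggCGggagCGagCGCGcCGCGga
These windows hold 35 and 31 CG. Over the full 300 bases the 24 Hox promoters had a median of 14.5 CG (4 to 45), and all promoters a median of 7.0. The TATA box letters TATAAA, searched on both strands, were in 4 of the 24 (16.7%), those of Hoxb8, Hoxd13, Hoxd4 and one of the Hoxa10 promoters, and in 13.6% of all promoters. The SMAD-binding letters CAGAC were in 9 of 24 (37.5%) and in 49.6% of all, and neither the Hoxa13 nor the Hoxd13 window held them. The palindrome GTCTAGAC was in 0 of 24 and in 0.213% of all, and the caudal factor letters TTTACGA in 2 of 24 (8.33%, Hoxb8 and Hoxd11) and in 0.597% of all. CAGAC and GTCTAGAC share the letters AGAC, no motif lies whole within another, and a match describes letters only.

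Hoxa10 and Hoxa9 act in the lower trunk and the upper limb segments, and Hoxa10 in the uterus. Hoxa10 was at 18.9, 15.2, 15.1, 11.9, 22.4 and 42.1 CPM in WT, β2SP+/-, β2SP-/-, SMAD3+/-, SMAD3-/- and the double heterozygote. Only the double heterozygote was called, at 2.22-fold over WT (1.92 to 2.58). Hoxa9 was at 3.80, 3.53, 3.44, 2.91, 5.64 and 10.0 CPM in the same order, and again the double heterozygote was called, at 2.64-fold (1.91 to 3.72). Hoxd10, a thigh and lumbar gene, was at 6.05 CPM there and 2.83 CPM in WT, a ratio of 2.14 whose lower bound of 1.46 missed the threshold.

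The trunk genes of cluster C moved the other way. Hoxc8 was at 50.1, 49.0, 46.3 and 48.7 CPM in WT, β2SP+/-, β2SP-/- and SMAD3+/-, and at 13.7 and 15.2 CPM in SMAD3-/- and the double heterozygote. The first 4 libraries differed by less than 1.5-fold. Against WT it was 3.66-fold lower (3.18 to 4.22) in SMAD3-/- and 3.3-fold lower (2.91 to 3.73) in the double heterozygote. Hoxc6 was at 24.2, 25.3, 27.3 and 29.5 CPM in the first 4 and at 10.3 and 13.2 CPM in the others, 2.35-fold (1.97 to 2.82) and 1.84-fold (1.57 to 2.14) below WT. Hoxc9, a thoracic gene that also separates motor neuron columns, was at 8.32, 9.28, 13, 9.11, 2.84 and 4.08 CPM, and was 2.93-fold (2.11 to 4.08) and 2.04-fold (1.55 to 2.68) lower in the last pair.

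Hoxc4 and Hoxc5, genes of the neck and upper thorax, fell as well. Hoxc5 was at 18.7, 16.5, 16.9, 17.3, 9.73 and 3.15 CPM, which is 1.92-fold (1.58 to 2.33) and 5.92-fold (4.64 to 7.59) below WT in the last pair; the call in SMAD3-/- was lost with counts scaled by their total. Hoxc4 was at 13, 14.3, 16.9, 13.9, 6.26 and 6.18 CPM, and was lower by 2.08-fold (1.64 to 2.63) and 2.1-fold (1.69 to 2.62). Hoxc10, a gene of the lumbar spinal cord and hindlimb, was below WT in the last pair as well. It stood at 13.7, 19.0, 16.9, 22.5, 3.24 and 7.71 CPM. It was called lower in SMAD3-/-, by 4.23-fold (3.18 to 5.66), while the double heterozygote was 1.78-fold below WT with a lower bound of 1.44 and was not called, except under DESeq2's size factors.

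In cluster B the change lay in a few genes. Hoxb5, which acts in the shoulder region, gut nervous system and lung, was at 10.0, 10.2, 14.3, 15.7, 1.20 and 3.09 CPM. It was 8.34-fold lower (5.44 to 13.2) than in WT in SMAD3-/- and 3.24-fold lower (2.45 to 4.29) in the double heterozygote. Hoxb8, known from the spinal cord, limb bud and myeloid cells, was at 3.89, 4.71, 4.78, 4.17, 1.02 and 7.13 CPM. It was called lower than WT in SMAD3-/- alone, by 3.81-fold (2.25 to 6.61). Hoxb3, a hindbrain and pharyngeal arch gene, was at 26.5, 27.1, 27.3, 30.7, 11.2 and 19.2 CPM and was 2.35-fold lower (1.98 to 2.79) in SMAD3-/-.

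In cluster A, Hoxa3 and Hoxa5 were called in opposite directions. Hoxa3, needed for thymus and parathyroid, was at 7.17, 4.86, 7.77, 8.04, 3.15 and 5.22 CPM and was lower in SMAD3-/-, by 2.27-fold (1.63 to 3.17). Hoxa5, a gene of the neck, lung and upper thorax, was the single member numbered below 9 called higher than WT under TMM scaling: it stood at 6.90, 6.04, 4.93, 8.04, 14.3 and 7.48 CPM and was 2.08-fold higher (1.62 to 2.7) in SMAD3-/-. Hoxa4, also of the neck, was at 1.33, 1.18, 1.20, 2.04, 2.58 and 0.828 CPM and differed by the rule only between the last 2 libraries.

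Hoxd9 and Hoxd3 were the lower members of cluster D. Hoxd9, a lower trunk and upper limb gene, was at 8.58, 7.36, 9.12, 4.65, 1.51 and 4.04 CPM. It was 5.68-fold lower (3.81 to 8.66) in SMAD3-/- and 2.12-fold lower (1.61 to 2.79) in the double heterozygote, and 1.84-fold below WT without a call in SMAD3+/- (1.29 to 2.66). Hoxd3, a gene of the neck vertebrae, was at 5.04, 5.01, 5.53, 6.59, 1.60 and 3.15 CPM and was 3.15-fold lower (2.04 to 4.93) in SMAD3-/-. So within cluster D members 3 and 9 were lower in SMAD3-/-, where members 12 and 13 were higher. In the double heterozygote Hoxd3 was 1.6-fold below WT (1.13 to 2.24) and was not called.

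The 11 members that were called in none of the 7 pairs under TMM scaling were Hoxa2, Hoxa6, Hoxa7, Hoxb2, Hoxb4, Hoxb6, Hoxb7, Hoxb9, Hoxd4, Hoxd8 and Hoxd10. Hoxb9, a thoracic gene, was the most abundant of them at 15.4 to 23.4 CPM. Hoxb2, a hindbrain gene, came near a call at 12.0 CPM in SMAD3-/- against 6.37 CPM in WT, a ratio of 1.88 with a lower bound of 1.45, and was called higher there with counts scaled by their total. Hoxa6 was the lowest, with 4 to 48 counts.

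A further 6 members stayed under 1 CPM in every library and are given as counts. Hoxb1, a gene of the early hindbrain, had 0 counts in all 6 libraries, below the floor given above for each. Hoxd1 had 1 to 9 counts. Hoxb13, a gene of the tail and prostate, had 0 counts in the first 4 libraries, 4 in SMAD3-/- and 6 in the double heterozygote. Hoxc11 had 2, 0, 0, 2, 14 and 9 counts, Hoxc12 had 0, 5, 0, 2, 10 and 4, and Hoxc13, a hair and nail gene, had 1, 1, 3, 1, 13 and 17. These posterior members passed the floor of 3 counts only in the 2 deepest libraries, except Hoxc12 in β2SP+/-. Its level there was 0.736 CPM, against 0.444 CPM in SMAD3-/- and 0.127 CPM in the double heterozygote. At these depths the absence of these members elsewhere cannot be stated.

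SMAD3-/- and the double heterozygote were also compared directly, since they had like shares of uniquely placed reads on genes (80.1 and 81.2%). In other ways these libraries differed. Rn18s was at 349 and 1529 CPM in them and Malat1 at 4473 and 335 CPM. The summary line for ambiguous reads held 0.025 and 0.827% of records. The part of these differences in the ratios below was not tested. Of the 33 members 11 were called (33.3%), beside 43.1% of all genes (23.4% higher, 19.8% lower). Their median log2 ratio, double heterozygote over SMAD3-/-, was 0.55, against 0.00 over all genes. Higher in the double heterozygote were Hoxb8 by 6.98-fold (4.54 to 11.2), Hoxd13 by 2.84-fold (2.51 to 3.21), Hoxd9 by 2.68-fold (1.82 to 4.03), Hoxd11 by 2.59-fold (1.52 to 4.64), Hoxb5 by 2.58-fold (1.67 to 4.11), Hoxc10 by 2.38-fold (1.82 to 3.13), Hoxa13 by 2.28-fold (1.67 to 3.16) and Hoxa10 by 1.88-fold (1.69 to 2.08). Lower were Hoxa4 by 3.11-fold (1.93 to 5.15), Hoxc5 by 3.09-fold (2.42 to 3.95) and Hoxa5 by 1.92-fold (1.62 to 2.28). The call of Hoxd11 was lost both under DESeq2's size factors and with counts scaled by their total. All 3 of the lower members are numbered 4 or 5, and the others run from 5 to 13.

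The allele fit, the only kind of test with residual degrees of freedom (3 with all libraries), fitted all 6 libraries to the number of labelled mutant alleles with edgeR's quasi-likelihood test over 14085 genes. Of 32 Hox genes in it, 0 passed an adjusted p of 0.05 for Sptbn1 and 0 for Smad3, and of all genes 0% passed for either. At an unadjusted p under 0.05 there were 0 members for Sptbn1, beside 21 of all genes (0.149%), and 2 for Smad3 (6.25%), beside 3404 of all genes (24.2%). Those were Hoxd9, with a log2 change per labelled Smad3 allele of -1.17 (SE 0.28, adjusted p = 0.16), and Hoxc8, with -1.08 (SE 0.35, adjusted p = 0.17). DESeq2's Wald test called both, Hoxd9 at -1.23 (adjusted p = 0.00388) and Hoxc8 at -1.14 (adjusted p = 0.0245), in a fit that called 14.5% of all genes. DESeq2 called 0 members for Sptbn1. The lowest adjusted p of a member for Smad3 ran from 0.00388 to 0.575 over the alternatives. Hoxd13 changed by 2.08 per Smad3 allele (SE 1.35, adjusted p = 0.355), as it was low in the library labelled SMAD3+/- and high in the other two with a mutant Smad3 allele. The biological coefficient of variation was 0.467 with all 6 libraries and 0.112 with the first 4. With no genotype repeated, it measures how far libraries lie from a straight line in allele number, not the spread between replicates. In edgeR's fit of those 4, with 1 residual degree of freedom, 0 of 29 members passed for either gene, beside 1 of 13786 genes for Sptbn1 (0.00725%) and 381 for Smad3 (2.76%). At an unadjusted p under 0.05 there were 1 and 4 of the 29 members in it for Sptbn1 and Smad3. Beside them were 453 and 2296 of the 13786 genes, so the members did not stand out from all genes for either.

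HOX proteins bind DNA with cofactors of the TALE homeodomain family. Meis1 was at 59.2, 56.4, 60.5, 45.1, 50.5 and 22.1 CPM, 2.68-fold below WT in the double heterozygote. Meis2 was at 72.5, 82.9, 81.7, 51.7, 51.6 and 36.1 CPM, 2.01-fold below WT there. Both were called in the double heterozygote. Pknox2 was called lower in SMAD3+/- (4.26 CPM against 19.5 CPM in WT) and in SMAD3-/- (5.55 CPM). None of the TALE genes compared was called higher than WT in any library, and none was called in the Sptbn1 mutants. Over all genes 6.1, 49.4 and 40.7% were called in SMAD3+/-, SMAD3-/- and the double heterozygote.

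Polycomb complexes keep Hox genes silent outside their domains, and trithorax proteins keep them active. In SMAD3-/- 11 of 28 Polycomb genes were higher and 4 lower, and in the double heterozygote 8 were higher and 2 lower. Cbx8, a Polycomb reader of H3K27 methylation, went from 1.24 CPM in WT to 6.44 and 5.48 CPM, and Rbbp4, a histone-binding subunit, from 94.3 to 299 and 205 CPM. The other way, Phc3 went from 220 to 41.7 and 103 CPM. Pcgf2 was lower in SMAD3-/- alone, at 48.5 CPM in WT and 4.97 and 55.7 CPM in the last pair. Of 13 trithorax and H3K27 demethylase genes 3 were higher and 6 lower in SMAD3-/-, and 3 and 5 in the double heterozygote. Mll1, the methyltransferase most tied to Hox genes, went from 362 CPM to 34.6 and 155 CPM. Wdr5 of the same list went up, from 25.6 to 84.1 and 53.5 CPM. The demethylase gene Kdm6b went from 93.8 to 6.49 and 136 CPM. The genes named are examples from each list. No gene of either list was called in β2SP+/-, β2SP-/- or SMAD3+/-. These shares lie beside calls for 49.4 and 40.7% of all genes.

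The list of RNAs within the clusters and of flanking homeobox genes had 11 genes in the tables, of which 2, both RNAs, reached 1 CPM and were compared. Hoxa11as, antisense to Hoxa11, had 12, 3, 2, 4, 130 and 280 counts, 5.44-fold and 8.4-fold over WT in the last pair, as Hoxa11 itself was higher there. In GENCODE M21 24.8% of the exon bases of Hoxa11 overlap the antisense gene, and 18.0% of those of Hoxa3 overlap Hoxaas2 and Hoxaas3. The sources used here do not give whether counting used strand, so reads of these partners cannot be told apart. Hoxaas2, listed as 5730596B20Rik, was at 5.04, 3.53, 4.18, 4.94, 0.533 and 1.72 CPM and was lower in the last pair. The flanking gene Evx2, beyond Hoxd13, had 0 counts in the first 4 libraries and 5 and 7 in the last pair.

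Among upstream regulators, the caudal genes Cdx1, Cdx2 and Cdx4 had 0 or 1 count in every library. Of 10 such regulators compared, 3 were higher and 4 lower in SMAD3-/-, 2 higher and 3 lower in the double heterozygote, 4 lower in SMAD3+/-, 2 lower in β2SP+/- and none in β2SP-/-. The rule called 49.4, 40.7, 6.1, 1.83 and 1.06% of all genes in these comparisons. Gdf11, a TGF-β family ligand that turns on posterior Hox genes in the embryo, was at 4.42, 6.04, 4.33, 5.72, 12.4 and 9.43 CPM. Aldh1a2, which makes retinoic acid, was at 71.9, 28.7, 47.1, 26.6, 12.7 and 16 CPM, and Cyp26b1, which breaks it down, at 156, 126, 124, 80.5, 28.1 and 54.1 CPM. Both enzymes were lower than in WT in the last pair, and both were also called lower in SMAD3+/-. Aldh1a2 was called lower in β2SP+/- too, by 2.5-fold with a lower bound of 2.14, and Cyp26b1 was not called there.

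Position factors of the limbs and face are homeodomain, T-box, forkhead and other regulators that mark where mesenchyme lies. Of 19 compared, 5 were higher and 3 lower in SMAD3-/-, and 7 higher and 2 lower in the double heterozygote. These counts are near the background of 49.4 and 40.7% of all genes called. Pitx1, the hindlimb determinant, was at 1.24, 3.09, 2.24, 1.45, 12.8 and 9.78 CPM. Msx1, of limb tips and facial mesenchyme, was at 0.442, 1.03, 0.448, 0.0969, 9.42 and 8.09 CPM, and Lhx9, of the limb bud, at 1.77, 1.18, 2.24, 2.42, 18.8 and 22.4 CPM. These 3, like Prrx2 and Hand2, were called higher in both of the last pair, and were chosen after their values were seen. Others went the other way: Prrx1, a general limb mesenchyme factor, was lower in SMAD3-/- (519 against 1120 CPM in WT), as was Tbx15 (93.5 against 175 CPM). Foxf1, of gut and lung mesenchyme, was lower in both (1.42 and 1.43 against 4.42 CPM), and Shox2, of the proximal limb, in the double heterozygote (7.29 against 15 CPM). Tbx4, a hindlimb gene, was higher in the double heterozygote alone, at 70.2 CPM against 9.73 CPM in WT and 11.7 CPM in SMAD3-/-. Tbx5, of the forelimb, lay at 7.02 to 13.8 CPM and was not called in any mutant against WT. In the other libraries 1 factor was called in β2SP+/- (Alx1, higher), 1 in SMAD3+/- (Barx1, lower) and none in β2SP-/-.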

How the data were processed

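Total RNA from 6 MEF cultures, 1 per genotype, was sequenced from TruSeq libraries, per the labels' protocols. The authors deposited raw read counts per gene, 1 table per library, with 25793 genes and 5 closing summary lines (45.2 to 78.4% of records), which were left out. Per the submitters' processing notes, FastQC, Trimmomatic, TopHat2 2.0.10, HTSeq, DESeq2 and mm9 were used; their roles, the annotation, strand and counting mode are not given in the sources used here. Counts were scaled by TMM in edgeR 4.0.16 (R 4.3.3). For 7 pairs of libraries, the 14810 genes that reached 1 CPM in any library were compared by count ratio with exact Clopper-Pearson 95% intervals (scipy 1.17.1), called beyond 1.5-fold. A log2 ratio had 0.5 counts added. Shares used raw Hox counts and exact binomial intervals. Allele numbers were fitted with edgeR's quasi-likelihood test (limma 3.58.1), filtered at 1 CPM in 2 libraries, with Benjamini-Hochberg adjustment; DESeq2 1.42.0 was an alternative. Transcript lengths and homeoboxes came from GENCODE M21 (GRCm38), promoters from RefSeq (GRCm38.p6). On simulated data with 200 of 14810 genes changed, the pair rule against WT recovered 58.5 to 74.0% of 2-fold and 90.0 to 95.0% of 4-fold changes; these data held counting error only. Members called in at least 1 pair are given in every library, the others by range; other genes come from 13 lists (154 of 162 genes found). The members and lists were chosen with earlier results of these data known. Alternatives were other scalings, filters, a 2-fold threshold, intervals widened by dispersion, leaving out libraries, and weights by transcript length, plus the ranges over 4 libraries, added after the data were seen. Single values of 1 member and 1 cofactor are not reported here.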

Additional observations from a re-analysis of the deposited data

How the results depend on the processing

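No alternative turned a call to the other direction. Other scalings changed single calls: total counts added Hoxb2 and lost Hoxc5 in SMAD3-/-, DESeq2's size factors added Hoxc10 in the double heterozygote, and both lost Hoxd11 between the last pair. The counts of Hox genes called stayed within 1.5 times in 39 of 49 runs. Those runs include the comparisons of β2SP+/-, β2SP-/- and SMAD3+/- with WT, at 1 call each. They also include β2SP-/- against β2SP+/-, at 0 calls. The number 39 is therefore no measure of how stable the calls were in the comparisons with many. With a 2-fold threshold, SMAD3-/- against WT kept 10 calls, the double heterozygote 7, and the double heterozygote against SMAD3-/- 3. With intervals widened by the dispersion of the 6-library fit, these numbers were 3, 4 and 1, and β2SP+/- and β2SP-/- had 0, as Hoxd13 was lost; in SMAD3-/- against WT Hoxd13 was lost as well. With the dispersion of the first 4 libraries, 7 calls were left between the double heterozygote and SMAD3-/-. The shares of all genes under the 2-fold and widened rules are not given, so these numbers have no background beside them. Without a filter β2SP+/- had 2, with Hoxc12 (5 counts against 0) added. Per Smad3 allele, 2 members passed in DESeq2 and none in edgeR; leaving out each library in turn gave 0 to 0 calls for both genes. No paired analysis was possible because each group is 1 library, so a block would leave nothing to compare within it.

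The spread of a share between libraries (highest minus lowest, in percentage points) was smaller over the first 4 libraries than over all 6: 4.97 against 20.6 for cluster A, 4.13 against 6.17 for B, 2.96 against 27.9 for C, 3.06 against 16.3 for D, and 2.73 against 7.71, 2.56 against 23.4, 4.70 against 9.76 and 2.01 against 21.6 for members 1 to 4, 5 to 8, 9 and 10, and 11 to 13. Without Hoxc8, the member with the most counts, it was 10.4 for cluster B, 21.8 for C, 11.6 for members 1 to 4, 18.2 for 5 to 8 and 7.48 for 9 and 10. With counts per kilobase it was 5.56 for members 1 to 4 and 7.28 for 9 and 10. The spread of the mean paralogue number, 1.87, was 1.63 per kilobase, 2.17 without Hoxc8, 1.17 weighted by log2(CPM + 1) and 0.30 over the first 4 libraries.

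The libraries of WT, the Sptbn1 mutants and SMAD3+/- are the shallower ones. Posterior members rest on 0 to 6 counts there, other than Hoxa11 and, in WT, Hoxd13. The part of depth in these low counts was not tested. SMAD3-/- and the double heterozygote differ from the others in library composition as well as genotype, and these cannot be told apart with 1 library each. Intervals hold counting error only, so differences between embryos, litters or dissections are not covered.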
